A study of Mus musculus with 13 samples.

Results

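RNA polymerase II is the enzyme that transcribes protein-coding genes, and the genes described here encode its subunits in mouse oocytes. The 10 genes, Polr2a, Polr2b, Polr2c, Polr2d, Polr2e, Polr2f, Polr2g, Polr2h, Polr2i and Polr2k, were chosen by symbol from the 18939 genes of the deposited count tables, and all 10 passed the filter on low counts in every comparison. Single oocytes were profiled by RNA sequencing in 13 libraries of 4 groups. The GV groups were 3 NSN GV oocytes and 3 SN GV oocytes, which are arrested at the germinal vesicle stage with a nucleolus that is either not surrounded (NSN) or surrounded (SN) by chromatin. The MII groups were 3 NSN-MII and 4 SN-MII oocytes, which had been sorted as NSN or SN at the GV stage and then matured in vitro to metaphase of the second meiotic division. The oocytes came from juvenile, hormone-primed C57BL/6 females, and all groups, the controls included, had been injected with mRNA for a fibrillarin–GFP fusion protein and held in the meiotic inhibitor Cilostamide for 6 h, so no uninjected oocyte was compared. NSN and SN were assigned by the pattern of the injected nucleolar protein. Each library is 1 oocyte, and nothing in the labels ties oocytes to a female. The tests therefore judge group differences against the spread between these oocytes, and do not speak for variation between females.

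RPB1, the product of Polr2a, and RPB2, the product of Polr2b, form the catalytic centre of the enzyme, and RPB1 carries the long C-terminal repeat domain whose phosphorylation marks initiation and elongation. RPB3 (Polr2c) is part of the platform on which the enzyme assembles, RPB4 (Polr2d) and RPB7 (Polr2g) form a stalk that projects from the core, and RPB9 (Polr2i) sits in the jaw and takes part in proofreading. RPB5 (Polr2e), RPB6 (Polr2f), RPB8 (Polr2h) and RPB12 (Polr2k) are shared with RNA polymerases I and III. NSN oocytes still transcribe, SN oocytes are largely silent, and meiotic maturation proceeds without new transcription, so that mRNA levels then change mainly as stored maternal transcripts are degraded or change their poly(A) tails.

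The libraries held between 7140416 and 8846287 estimated counts. All 10 oocyte markers that were examined, among them Gdf9 and Zp3, were detected in every group, with a summed level of 8663 to 14180 FPKM. Of 12 cumulus and granulosa cell markers, Foxl2 and Ptx3 were listed at 0 in all 13 libraries. Cyp19a1, Kitl and Nr5a2 were above 0 in every library, at up to 53.05, 7.58 and 11.19 FPKM. The others were above 0 in some libraries, at up to 3.14 FPKM. The summed level of the list was 27.4 to 37.6 FPKM at GV and 39.3 to 65.2 FPKM at MII, most of it from Cyp19a1. From GV to MII, 2 of the 10 oocyte markers rose and 5 fell, with the largest log2 fold changes in Figla (-4.25) and Zp3 (-3.84), and of the 4 cumulus and granulosa markers tested, Kitl (1.26) and Cyp19a1 (1.04) rose. The sum thus moved with stage, and its part in the stage differences given below was not tested. Among the libraries, NSN-MII replicate 3 stood apart with the lowest number of genes detected, 11579, and the largest share of counts in its 10 most abundant genes, 12.1%, against 8.92% to 11% in the other MII libraries.

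The 3′ ends of the subunit mRNAs are shown because SMART-seq2 primes from the poly(A) tail and therefore measures tailed mRNA. For each gene, 1 transcript of the mm10 GENCODE M21 annotation was used, that nearest to the length implied by the deposited values. The last 100 bases of its 3′ UTR were searched on the sense strand for TTTTAT or TTTTAAT, sequences like those bound by the cytoplasmic polyadenylation factor CPEB. The last 40 bases were searched for the poly(A) signals AATAAA or ATTAAA. Polr2b (RPB2), Polr2h (RPB8) and Polr2k (RPB12) had a CPEB-like match, as did 17.8% of 16215 genes searched. Polr2a, Polr2c and Polr2e had a poly(A) signal only, a match found in 74.1% of the genes searched. In the 30-base windows below, read 5′ to 3′ on the transcript, capitals mark these matches, and in Polr2h the CPEB-like match overlaps the poly(A) signal.
Polr2b: ttgtgataagaaTTTTATttgttttgttta
Polr2h: gtatatgattttTTTTATTAAAgttttctt
Polr2k: atacaattgtaTTTTAATactttgtataaa
Polr2a: ttttgaaattgaAATAAAgtttactaattt
Polr2c: tgcacggtagtcAATAAAtaccagcactag
Polr2e: actctcctgagaATTAAAggatactttgat
The windows lie in the 3′ UTR exon, at chr5:77349247-77349276 (plus strand) in Polr2b, chr16:20722231-20722260 (plus) in Polr2h, chr15:36176900-36176929 (plus) in Polr2k, chr11:69734006-69734035 (minus) in Polr2a, chr8:94864209-94864238 (plus) in Polr2c and chr10:80035955-80035984 (minus) in Polr2e. Neither match was found in Polr2d and Polr2g, and the 3′ UTRs of Polr2f and Polr2i, 49 and 39 bases long, were too short to be searched. The 3 genes with a CPEB-like match all fell from GV to MII in the test described below, Polr2h narrowly. So did Polr2d, Polr2e and Polr2g of the 5 searched without a match. Over all genes tested 36.9% fell, and a link between the match and the fall was not tested.

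Per length, the subunit mRNAs were far from equal in level. In NSN GV oocytes Polr2d, the stalk subunit RPB4, had the highest mean level, 734.4 ± 165.1 FPKM (SD, n = 3), followed by Polr2c at 494.6 ± 84.4 FPKM and Polr2g at 332 ± 64.5 FPKM. SN GV oocytes gave the same first 3 genes, with 863.9 ± 71.9, 505.1 ± 14.5 and 328.8 ± 27 FPKM (n = 3). Polr2i (RPB9), Polr2k, Polr2f and Polr2e followed in both GV groups with means between 94.6 and 251.4 FPKM. Polr2i and Polr2k overlapped within each GV group, as did Polr2f and Polr2e. In NSN GV oocytes so did Polr2d and Polr2c, Polr2g and Polr2i, and Polr2k and Polr2f. Polr2b stood at 44.4 ± 15 FPKM in NSN and 55.1 ± 0.614 FPKM in SN GV oocytes. Polr2h had 14.2 and 10.9 FPKM. Polr2a, which encodes the largest subunit, was lowest in all 4 groups, with 1.95 ± 1.46 FPKM in NSN GV, 1.95 ± 0.894 in SN GV, 3.12 ± 0.392 in NSN-MII and 3.1 ± 1.4 FPKM in SN-MII oocytes (n = 3, 3, 3 and 4). Its values came from 30 to 221 estimated counts a library.

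The order changed at MII. Polr2c was then first, with 946 ± 122.9 FPKM in NSN-MII (n = 3) and 931.1 ± 48.3 FPKM in SN-MII oocytes (n = 4), and Polr2d second, with 260 ± 113.6 and 569.8 ± 229.9 FPKM. In SN-MII oocytes the libraries of these genes overlapped. Polr2f (RPB6) and Polr2g (RPB7) came next in both groups, and overlapped in SN-MII. Polr2i, Polr2b, Polr2e, Polr2k and Polr2h had means between 4.79 and 14.9 FPKM at MII in both groups, with Polr2i highest of these in NSN-MII and Polr2k in SN-MII oocytes. Ranked by mean within each group, each overlapped its neighbours among these 5 genes. In NSN-MII oocytes Polr2h also overlapped Polr2a. Polr2c and Polr2d together gave 51% to 60.9% of the summed FPKM of the 10 genes at GV and 79.9% to 87.8% at MII. The sum itself was 2284 ± 478.1 FPKM in NSN GV, 2392 ± 129.4 in SN GV, 1461 ± 223.1 in NSN-MII and 1761 ± 274.6 FPKM in SN-MII oocytes.

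**Figure D1:**
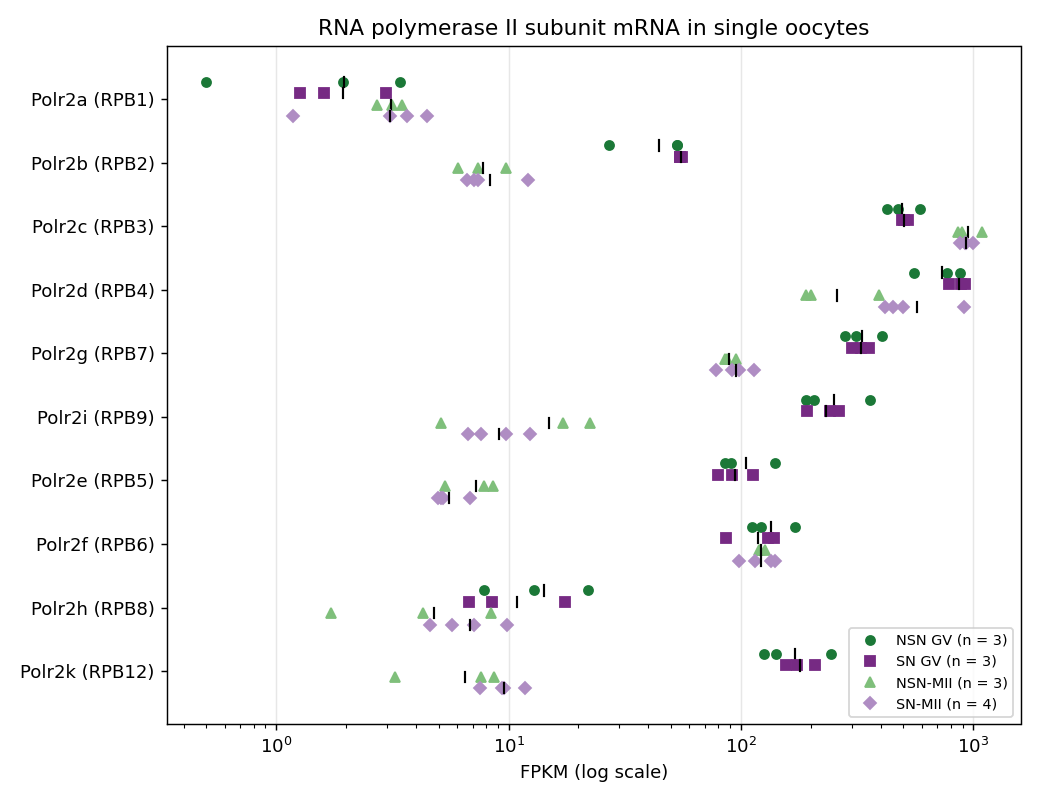
Level of each RNA polymerase II subunit mRNA in every library, in FPKM on a log axis, with the subunit's name beside the gene. Points are single oocytes, coloured by group, and black ticks are group means. Polr2a lies at 0.5 to 4.48 FPKM throughout, and Polr2b, Polr2c, Polr2e, Polr2g, Polr2i and Polr2k separate fully by stage.

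Most subunit mRNAs differed between GV and MII oocytes, as did 7800 of all 11375 genes tested. The GV and MII libraries are different oocytes, so rose and fell describe differences between groups. Between MII and GV oocytes, averaged over NSN and SN, 1 of the 10 genes rose and 7 fell at an adjusted p under 0.05 in edgeR's quasi-likelihood test, while Polr2a and Polr2f did not pass. Over all 11375 genes tested, 31.7% rose and 36.9% fell. The median log2 fold change of the 10 genes was -1.35, beside -0.0997 over all genes. In 6 of the 10 (Polr2b, Polr2c, Polr2e, Polr2g, Polr2i and Polr2k) the GV and MII libraries did not overlap, as in 47.4% of all genes. The values are shares of each library, so a change in total mRNA per oocyte is not measured. With library totals alone as scaling the median of all genes moved to -0.39, and still 1 member rose and 7 fell, while the sign of Polr2f turned.

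Of the catalytic subunits, Polr2b fell and Polr2a did not pass. Polr2b (chr5:77310147-77349324), which encodes RPB2, was at 245.1, 243.1 and 230.6 CPM (counts relative to the library total, scaled by TMM) in SN GV and 199.8, 123 and 236 CPM in NSN GV oocytes. At MII it was at 37.7, 31.9, 35.2 and 34.4 CPM in SN and 42.3, 26.7 and 24.7 CPM in NSN oocytes. All 7 MII libraries were below all 6 GV libraries. The fall was 6.4-fold, with a log2 fold change of -2.68 (SE 0.18, adjusted p = 1.51e-09). For Polr2a (chr11:69733997-69758637), which encodes RPB1, the values were 9.44, 21.8 and 11 CPM in SN GV, 21.3, 3.75 and 14.3 CPM in NSN GV, 24.3, 28.4, 28.5 and 10.1 CPM in SN-MII, and 25, 23.1 and 24.1 CPM in NSN-MII oocytes. In CPM, 6 of the MII libraries were above every GV library and the fourth SN-MII library was among the GV values. In FPKM the stages overlapped more. The highest GV value was 3.42 FPKM, and the MII values were 3.08, 3.67, 4.48 and 1.18 FPKM in SN and 3.49, 3.16 and 2.71 FPKM in NSN oocytes. The log2 fold change of 0.78 (SE 0.349, 95% interval 0.0452 to 1.52) did not pass the adjustment (adjusted p = 0.056). It passed when replicate 2 of SN GV, replicate 1 of NSN GV or replicate 4 of SN-MII was left out, with adjusted p of 0.024, 0.0177 and 0.0239.

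Polr2c, the assembly subunit RPB3, was the only member that rose. It was at 780.7, 753.9 and 747.6 CPM in SN GV and 554.2, 915.3 and 726.6 CPM in NSN GV oocytes. At MII it was at 1458, 1485, 1537 and 1782 CPM in SN and 1337, 1326 and 2038 CPM in NSN oocytes, so that no MII library reached down to the GV range. The rise was 2.1-fold, with a log2 fold change of 1.07 (SE 0.15, adjusted p = 8.23e-06). The exons of Polr2c (chr8:94857450-94873535) share 953 bases with Dok4 on the opposite strand, and its estimated counts were not whole numbers in 12 of 13 libraries. The libraries are not stated to keep strand, so reads in the shared part cannot be told apart.

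Both stalk subunits fell. Polr2g (RPB7, chr19:8793127-8798577) went from 200.7 to 312 CPM at GV to 63 to 92.8 CPM at MII, a 3.23-fold fall (log2 fold change -1.69, SE 0.152, adjusted p = 5.44e-08). Its partner Polr2d (RPB4) was at 799.8, 751.1 and 625.7 CPM in SN GV and 403.9, 768.1 and 662.1 CPM in NSN GV oocytes. At MII it was at 456.4, 406, 384.9 and 907.5 CPM in SN and 158.5, 170.7 and 408.2 CPM in NSN oocytes. The stages overlapped: the fourth SN-MII library had the highest value of all 13. Its log2 fold change was -0.87 (SE 0.255, adjusted p = 0.00607), a 1.83-fold fall. Polr2i (RPB9, chr7:30231948-30233390), in the jaw, fell further, from 89.7 to 195.5 CPM at GV to 4.05 to 11.8 CPM at MII, which was 18.5-fold (log2 fold change -4.21, SE 0.262, adjusted p = 6.28e-10). Its exons share 325 bases with Tbcb on the opposite strand, and its estimated counts were fractional in 13 of 13 libraries.

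Of the 4 subunits shared with RNA polymerases I and III, Polr2k, Polr2e and Polr2h fell and Polr2f did not pass. Polr2k (RPB12, chr15:36174010-36177010) was at 81.9, 60.6 and 63.6 CPM in SN GV and 46.4, 97 and 51.4 CPM in NSN GV oocytes, and at 3.98, 4.88, 3.42 and 4.36 CPM in SN-MII and 3.21, 2.97 and 1.69 CPM in NSN-MII oocytes. This 20-fold fall was the largest of the 10 (log2 fold change -4.32, SE 0.245, adjusted p = 2.42e-10). Polr2e (RPB5, chr10:80035949-80039795) fell 14.3-fold, from 82.8 to 153.1 CPM to 5.71 to 9.15 CPM (log2 fold change -3.84, SE 0.199, adjusted p = 9.96e-11). Polr2f (RPB6, chr15:79141009-79151774) spanned 53.1 to 102.7 CPM at GV and 56.9 to 96.1 CPM at MII. Its stages overlapped almost fully, and its log2 fold change was 0.07, with a 95% interval of -0.32 to 0.46 (adjusted p = 0.756). The exons of Polr2f share 245 bases with 1700088E04Rik on the opposite strand, and its estimated counts were fractional in 13 of 13 libraries. As for Polr2c, reads in the shared part cannot be told apart. Polr2h (RPB8, chr16:20717665-20722267) was scarce, at 5.36 to 15.4 CPM at GV and 1.43 to 9.68 CPM at MII. Its log2 fold change of -0.999 (SE 0.409) passed narrowly, at an adjusted p of 0.0391, and no longer passed in 8 of the 13 fits that each left out 1 library (adjusted p up to 0.129).

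Within each oocyte type the same contrast gave 1 rise and 5 falls in SN oocytes, where 25.1% of all genes rose and 31.2% fell, and 1 rise and 6 falls in NSN oocytes, where 25.4% rose and 30.8% fell. Polr2c was the gene that rose in both, with log2 fold changes of 1.04 in SN and 1.10 in NSN oocytes (adjusted p = 0.00045 and 0.000445). Polr2b, Polr2e, Polr2g, Polr2i and Polr2k fell in both. Polr2d fell in NSN oocytes (log2 fold change -1.32, SE 0.378, adjusted p = 0.00723) and did not pass in SN oocytes (-0.43, SE 0.346, adjusted p = 0.304). Without the fourth SN-MII library the SN value was -0.80 (adjusted p = 0.048). The difference between the types was tested directly. None of the 10 genes passed this interaction test, which 0.0176% of all genes did, and for Polr2d it gave -0.89, with a 95% interval of -1.97 to 0.196 (adjusted p = 1). Over all genes 2 passed and 606 had an unadjusted p under 0.05; none of the 10 was among the latter, and DESeq2 called none of the 10 either.

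**Figure D2:**
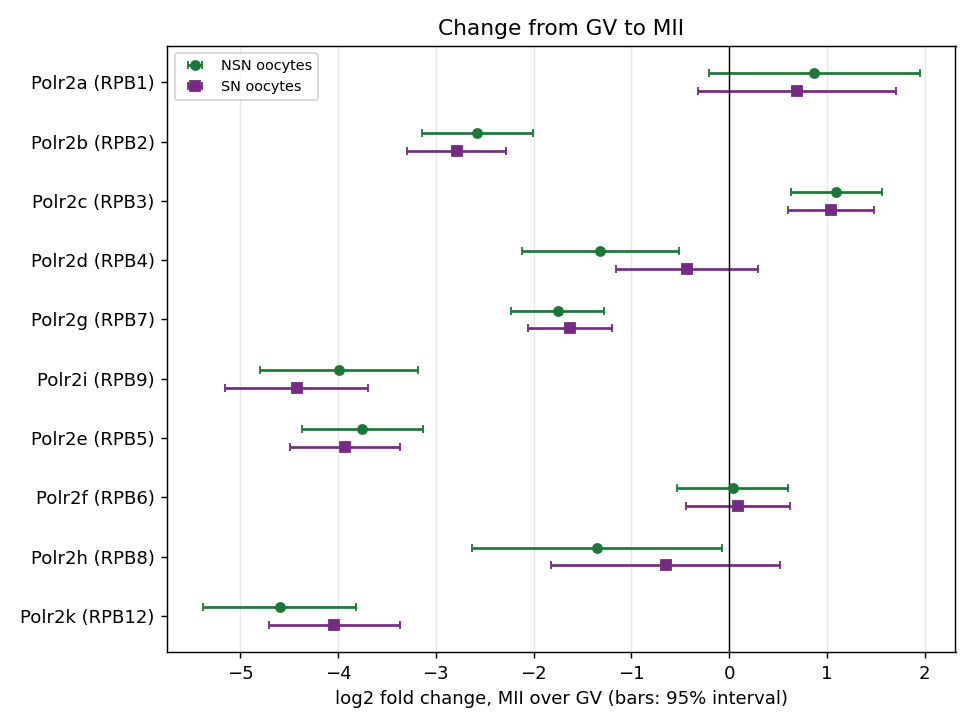
Log2 fold change from GV to MII for each subunit gene, in NSN oocytes (circles, 3 MII against 3 GV) and SN oocytes (squares, 4 MII against 3 GV). Bars are 95% intervals from edgeR's fit; Polr2i, Polr2e and Polr2k lie near -4 in both types, Polr2c near 1, and Polr2d is at -1.32 in NSN and -0.43 in SN.

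Transcript length moved with the stage difference across all genes. The median log2 fold change from GV to MII was -1.63 for transcripts under 1000 nucleotides (1129 genes), -0.919 from 1000 to 2000, 0.0423 from 2000 to 4000 and 0.654 over 4000 nucleotides (2761 genes). Most subunit mRNAs are short, and the part of length in their values was not tested. Against genes of its own length class, Polr2b (4145 nucleotides) was at the 3.77th percentile, 10.1-fold below the class median. Polr2e (1148 nucleotides) was at the 9.22nd percentile, 7.57-fold below. Both lie just above the lower bound of their class, 4000 and 1000 nucleotides. The next shorter classes have lower medians, so these distances depend on where the bounds were set. Polr2k and Polr2i, 489 and 508 nucleotides long, were 6.43-fold and 5.94-fold below their class median. Polr2g (833 nucleotides) and Polr2a (6740 nucleotides) were within 1.1-fold of theirs. The other short transcripts, Polr2d, Polr2h and Polr2f, were 1.7-fold, 1.55-fold and 3.26-fold above the class median, and Polr2c (1580 nucleotides) was 3.97-fold above its own.

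**Figure D3:**
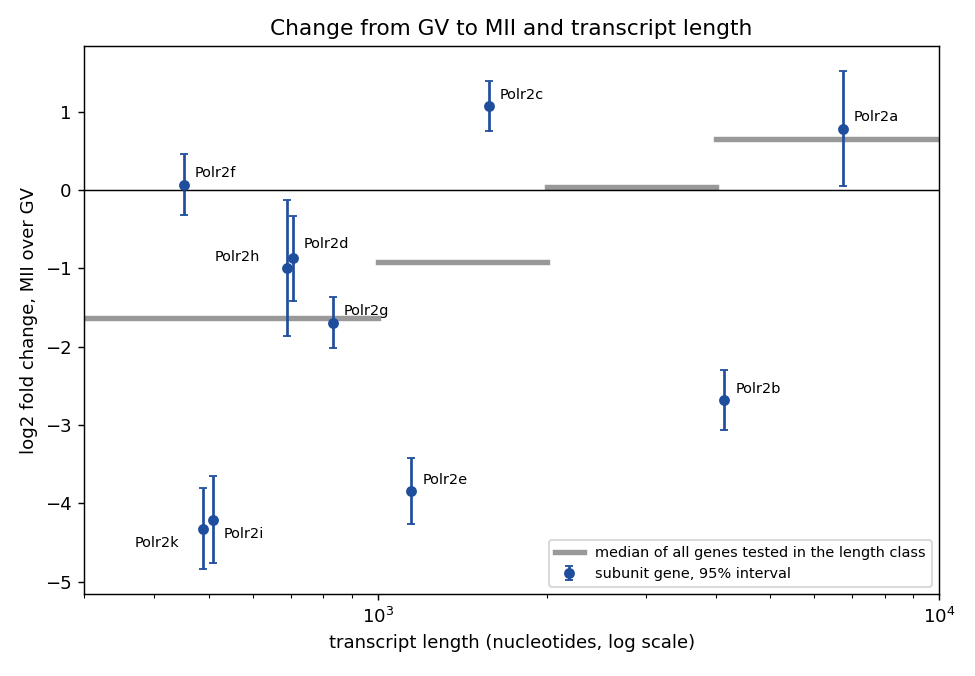
Log2 fold change from GV to MII against transcript length on a log axis for the 10 subunit genes (points with 95% intervals). Grey lines are medians of all tested genes in each length class, rising from -1.63 to 0.654. Polr2b and Polr2e, both just above the lower bound of their class, lie furthest below their class line. Polr2c lies furthest above.

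Before maturation, no subunit mRNA passed the test between oocyte types. None of the 10 genes was called between NSN and SN GV oocytes (3 against 3), and over all 10839 genes 0 were called, 0%, while 190 had an unadjusted p under 0.05, none of them a member. DESeq2 also called 0 genes and limma on log2(FPKM + 1) called 1. The log2 fold changes of the members, NSN over SN, ran from -0.34 in Polr2b to 0.37 in Polr2h, with a median of -0.0185 beside 0.007 over all genes. In CPM the groups overlapped in every member. They did not overlap in 6.03% of all genes, so 0 of the 10 genes is near that share. In FPKM the groups did not overlap in Polr2b, with NSN at up to 53.08 and SN at 54.64 or more. The 95% intervals were narrowest for Polr2c (-0.437 to 0.341) and Polr2g (-0.437 to 0.44) and widest for Polr2a (-1.4 to 1.33). In Polr2a the libraries were 21.3, 3.75 and 14.3 CPM in NSN and 9.44, 21.8 and 11 CPM in SN GV oocytes, so that both the second highest and the lowest value were NSN.

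Among the 6 GV libraries, the extremes fell mostly in 2 NSN libraries. The second NSN GV library was highest of the 6 GV libraries for 6 members and lowest for Polr2a and Polr2b, and the first NSN GV library was lowest for 6 members. Log2 CPM in the second library was compared with the mean of the other GV libraries, gene by gene. The median deviation was 0.504 for genes under 1000 nucleotides and -0.531 for those over 4000 nucleotides. In the first NSN GV library these medians were -0.308 and 0.0619. Polr2a and Polr2b are the members with the longest transcripts, and the part of length in these extremes was not tested. Without any 1 of the 6 libraries, still none of the 10 genes was called.

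After maturation, Polr2d stood out among the 10 but did not pass. No member was called between NSN-MII and SN-MII oocytes (3 against 4), a comparison in which 26 of 10028 genes, 0.259%, were called. Polr2d, the stalk subunit RPB4, was at 158.5, 170.7 and 408.2 CPM in NSN-MII and 456.4, 406, 384.9 and 907.5 CPM in SN-MII oocytes. In CPM, replicate 3 of NSN-MII lay within the SN range, and the others lay below that range. In FPKM all NSN-MII libraries lay below it, at up to 391.1 against 417.9 or more in SN-MII oocytes. The log2 fold change was -1.15 (SE 0.366, 95% interval -1.94 to -0.348), with an unadjusted p of 0.00882 and an adjusted p of 0.283. Without replicate 3 of NSN-MII, in which the fewest genes were detected, it was -1.70 and passed (adjusted p = 0.0173), in a fit that called 233 genes in all. Without the fourth SN-MII library it was -0.78 (adjusted p = 0.574). DESeq2 gave an adjusted p of 0.0619 for Polr2d.

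In CPM, Polr2k was the member without overlap between NSN-MII and SN-MII oocytes, which also held for 10.2% of all genes. Its highest NSN-MII value, 3.21 CPM, was below its lowest SN-MII value, 3.42 CPM. Its log2 fold change of -0.65 (SE 0.506) did not pass in edgeR's test (adjusted p = 0.765). In FPKM Polr2d was the member without overlap, and Polr2k overlapped (NSN-MII up to 8.68, SN-MII from 7.54). The lowest of the Polr2k counts was 10. The other 8 members had log2 fold changes between -0.36 (Polr2h) and 0.46 (Polr2i), with unadjusted p above 0.05. For Polr2a the interval was -0.663 to 0.81, for Polr2b -0.694 to 0.389 and for Polr2c -0.377 to 0.364. The median over the 10 genes was -0.0736, beside 0.0186 over all genes.

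**Figure D4:**
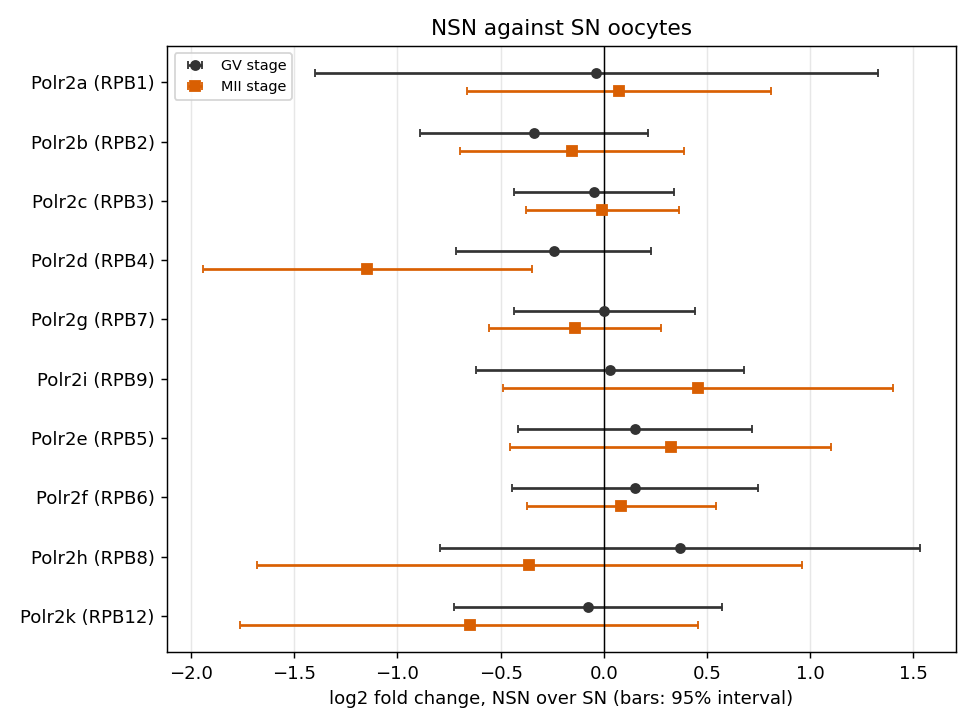
Log2 fold change of NSN over SN oocytes for each subunit gene at the GV stage (circles, 3 against 3) and at the MII stage (squares, 3 against 4). Bars are 95% intervals from edgeR's fit without adjustment for the number of genes; the interval of Polr2d at MII, -1.94 to -0.348, is the one that does not reach 0.

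Outside the member list, the genes Polr2j, Polr2l and Polr2m encode other proteins that belong to or bind the enzyme. Polr2l, which encodes RPB10, another shared subunit, fell from 76.8 to 186.5 CPM at GV to 3.04 to 31.6 CPM at MII (log2 fold change -2.63, SE 0.358, adjusted p = 5.89e-06). Polr2j, which encodes RPB11, the partner of RPB3, was at 232.4 to 435.1 CPM at GV and 91.9 to 336.7 CPM at MII. It did not pass (log2 fold change -0.26, SE 0.24, adjusted p = 0.348). For both genes the lowest value came from replicate 3 of NSN-MII. Polr2m had at most 37 estimated counts in any library, and its log2 fold change of 0.22 (SE 0.666) did not pass.

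The factors that work with the enzyme differed in both directions between GV and MII oocytes. Their lists are to be read against the 31.7% of all genes that rose and the 36.9% that fell. Of 18 subunits of general transcription factors, which place the polymerase at promoters, 5 rose and 11 fell, with a median log2 fold change of -0.885. The largest log2 fold changes were -3.88 for Ercc3, a helicase of TFIIH, and -3.66 for Ccnh, cyclin H of the same complex (adjusted p = 1.74e-10 and 5.42e-09). Of 22 pausing and elongation factors, 8 rose and 5 fell (median 0.188). Here the largest were -5.05 for Nelfe, a subunit of the pausing complex NELF, and -3.83 for Supt4a, a subunit of the elongation factor DSIF (adjusted p = 6.53e-11 and 7.74e-10). Of 16 modifiers of the C-terminal domain and assembly factors, 7 rose and 4 fell (median 0.258), the largest being -3.63 for Gpn1 and -2.31 for Gpn3, both assembly GTPases (adjusted p = 2.94e-10 and 0.000466). Of 19 subunits particular to RNA polymerases I and III, 2 rose and 11 fell (median -1.29), the largest being -6.3 for Znrd1, a polymerase I subunit, and -3.9 for Crcp, a polymerase III subunit (adjusted p = 3.81e-10 and 3.4e-07). No gene of these lists was called between NSN and SN oocytes at either stage.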

How the data were processed

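Single oocytes were amplified by SMART-seq2 and sequenced. Per the methods and the submitters' processing notes, the authors trimmed reads with Trim Galore 0.4.4, mapped them with Bowtie2 2.3.5 to mm10, and quantified genes with RSEM 1.2.28, depositing estimated counts in a table for each stage and FPKM values for all 13 libraries. Normalization by DESeq2 1.20.0 is stated in their notes, but the deposited counts were not normalized. RSEM divides reads shared by overlapping or similar genes, so some values are not whole. Here the estimated counts were rounded and tested over all genes by edgeR 4.0.16 (R 4.3.3, TMM scaling, filterByExpr, quasi-likelihood F test), with Benjamini-Hochberg adjustment and a threshold of 0.05. NSN was compared with SN within each stage, and MII with GV and the interaction in 1 fit of all 13 libraries. SE was taken as the size of the log2 fold change over the square root of F, and 95% intervals from the t distribution with the fit's degrees of freedom. GV and MII counts come from separate tables of unnormalized counts. Levels between genes are in the deposited FPKM, which are per length; CPM were scaled by TMM over all 13 libraries.

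Alternatives were DESeq2 1.42.0, DESeq2 size factors, library totals, no filter, a 1.5-fold minimum, limma 3.58.1 on log2(FPKM + 1) or log2(FPKM + 0.1), a replicate block, and leaving out each library. The test was tried on simulated data in which 200 genes were changed. For the MII against GV comparison (11375 genes), 54 of 100 genes changed by 1 on the log2 scale, 79 of 100 changed by 2 and 3 unchanged genes were called. For NSN against SN GV (10839 genes) these were 12, 70 and 8. In the real MII against GV data 7800 genes passed, so the simulated rates do not carry over to that comparison. Members and lists were chosen with earlier results of these data known. The text names the 10 members, Polr2j, Polr2l and Polr2m, and the 3 genes nearest in profile to Polr2a. From each other list it names the genes called between NSN and SN. It also names from each the 2 called genes with the largest change between MII and GV. Outside this rule, Gdf9, Foxl2, Ptx3 and Nr5a2 were named after their values were seen. Dok4, Tbcb and 1700088E04Rik were named as genes whose exons overlap those of a member. Gene positions and 3′ UTR sequences are from GENCODE M21 (mm10), which held 99.8% of the symbols in the count tables. No 2 libraries had identical values, and every column of per-sample values was used.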

Additional observations from a re-analysis of the deposited data

Results flagged for a closer look

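In the 4 SN-MII libraries Polr2d, the stalk subunit RPB4, was at 456.4, 406, 384.9 and 907.5 CPM. The fourth library stood apart in CPM. Its gap to the nearest of the others, divided by the range of the group, was 0.863, above Dixon's 95% critical value for 4 samples. This ratio depends on the scale and was not taken on log2 values. Chance gives such a gap in about 1 in 20 groups. This group was examined for 13 genes, the 10 members with Polr2j, Polr2l and Polr2m, so a single such gap is not unusual. The groups of 3 were not tested in this way. The same library had the lowest Polr2a value of the MII oocytes, 10.1 CPM. Without it, the difference of Polr2d between NSN-MII and SN-MII oocytes was -0.78 on the log2 scale (edgeR's quasi-likelihood test, adjusted p = 0.574) and that between SN-MII and SN GV oocytes -0.80 (adjusted p = 0.048).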

How the results depend on the processing

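The falls of Polr2b, Polr2d, Polr2e, Polr2g, Polr2i and Polr2k and the rise of Polr2c between GV and MII passed under every alternative and without any 1 library. Limits: 3 or 4 oocytes a group, low counts for Polr2a, Polr2h and Polr2m, and an assay that counts tailed mRNA as a share of each library. Polr2a passed between MII and GV without the filter (adjusted p = 0.0389) and with the replicate block (0.0379); the cause was not tested. Polr2h in NSN oocytes passed by DESeq2, limma and library totals (0.0454, 0.0164 and 0.0341), and Polr2d in SN oocytes by library totals (0.0401).

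Counts over all genes moved where few were called. Between NSN and SN GV oocytes limma called 1 gene with either pseudocount. Between NSN-MII and SN-MII oocytes, where 26 were called, DESeq2 called 221, no filter 89, the fit of all 13 libraries 69, limma 4 with either pseudocount and 2 without a filter, the replicate block 2, and fits without 1 library 2 to 233; members called were 0 to 1 in the latter. For the interaction DESeq2 called 36, no filter 6, limma 1 and fits without 1 library 0 to 12. Labels give the groups shared replicate numbers, but deviations of same-numbered libraries correlated at -0.187, -0.153 and -0.419 at GV and 0.0176, 0.0778 and -0.104 at MII, so the numbers were not taken as pairs; 1 of 6 libraries correlated best with its own number.

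Signs turned only for log2 differences that passed no test. Polr2g at GV was -0.0085 without the filter, -0.00038 by limma (also unfiltered), -0.00042 with the smaller pseudocount, -0.016 with the replicate block and -0.010 in the fit of all libraries. Polr2c at MII was 0.0010 with DESeq2 size factors, 0.017 by limma (all 3 forms), 0.033 with the block and 0.0012 in the fit of all libraries; Polr2j there was -0.152 by limma (also unfiltered), -0.154 with the smaller pseudocount and -0.162 with the block. The block also turned Polr2i at GV (-0.039), Polr2a at MII (-0.17), Polr2f from GV to MII in SN (-0.0099) and the interactions of Polr2a (-0.028) and Polr2f (0.031). Polr2f from GV to MII was -0.028 by limma (all 3 forms) and -0.24 by library totals, which gave -0.22 in SN and -0.27 in NSN, where limma gave -0.11. Polr2m was -0.13 by library totals and -0.12 by unfiltered limma.

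Without 1 library, values at GV ran from -0.67 to 0.40 (Polr2a), -0.22 to 0.075 (Polr2c), -0.14 to 0.28 (Polr2e), -0.12 to 0.28 (Polr2f), -0.20 to 0.098 (Polr2g), -0.062 to 0.89 (Polr2h), -0.37 to 0.19 (Polr2i), -0.45 to 0.077 (Polr2k), -0.17 to 0.33 (Polr2j) and -0.44 to 0.19 (Polr2l). At MII they ran from -0.17 to 0.20 (Polr2a), -0.22 to 0.089 (Polr2c), -0.094 to 0.19 (Polr2f), -0.99 to 0.057 (Polr2h), -0.31 to 0.41 (Polr2j) and -0.66 to 0.19 (Polr2l). From GV to MII Polr2f ran from -0.047 to 0.22, in SN from -0.048 to 0.19 and in NSN from -0.17 to 0.34, where Polr2j ran from -0.69 to 0.036 and Polr2m from -0.70 to 0.17. Interactions ran from -0.28 to 0.72 (Polr2a), -0.11 to 0.42 (Polr2b), -0.18 to 0.25 (Polr2c), -0.25 to 0.25 (Polr2f), -0.24 to 0.099 (Polr2g), -0.49 to 0.24 (Polr2j) and -0.63 to 0.21 (Polr2l).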

Other observations

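The mRNAs of the stalk partners, Polr2d and Polr2g, did not keep one ratio. In FPKM, Polr2d was 1.78 to 2.74 times Polr2g in NSN GV oocytes, 2.38 to 2.93 times in SN GV, 2.1 to 4.49 times in NSN-MII and 3.67 to 9.93 times in SN-MII oocytes. Polr2c over Polr2d was 0.614 to 0.764 and 0.543 to 0.664 in NSN and SN GV oocytes, and 2.78 to 4.71 and 1.09 to 2.23 in NSN-MII and SN-MII oocytes, so that it was below 1 in every GV library and above 1 in every MII library. These ratios were chosen after the values were seen and were not tested.

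Across the 13 libraries, the genes whose profile was nearest to that of Polr2a were Phlpp1, Pik3r3 and Ercc6l2, with root mean square differences of 0.337, 0.355 and 0.362 in centred log2 CPM, beside a median of 1.07 over 11374 genes. No other subunit was close: Polr2c, the nearest, differed by 0.815. This is a description over libraries that share stage and length differences.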
